A study of Rattus norvegicus with 9 samples.

Results

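The genes described here encode the isoforms of 3 enzymes of glucose breakdown and the carriers of its end product lactate: hexokinase (Hk1, Hk2, and Hk3), phosphofructokinase (Pfkl, Pfkm, and Pfkp), lactate dehydrogenase (Ldha and Ldhb), and the monocarboxylate transporters (Slc16a1 and Slc16a3). They were found by gene symbol among the probes of the array, which gave 10 genes with 11 probes out of 19293 gene symbols with 30367 probes. Pfkl had 2 probes, and its brighter probe stands for it below. The data came from 9 Agilent rat microarrays, each hybridized with RNA from the brain of 1 male Sprague Dawley rat 14 days after surgery, with 3 arrays per group, and the methods give the infarcted hemisphere as the tissue. Sham rats were operated on without occlusion and received the solvent through the tail vein. I/R rats had the middle cerebral artery closed with a nylon suture for 2 h and then reopened, and DHI rats had the same ischemia/reperfusion followed by daily tail vein injections of Danhong injection, a preparation of 2 medicinal plants. The sources do not say whether the I/R rats were injected with solvent, and p-values measure the spread between these rats.

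Hexokinase traps glucose in the cell as glucose 6-phosphate, phosphofructokinase commits it to glycolysis, and lactate dehydrogenase converts pyruvate and lactate into each other. Each enzyme comes in isoforms that cell types use in different proportions. Hk1 is the main hexokinase of neurons and binds mitochondria, Hk2 is the inducible form of muscle and fat, and Hk3 is found mostly in white blood cells. Phosphofructokinase is a tetramer of muscle (Pfkm), liver (Pfkl), and platelet (Pfkp) subunits, and lactate dehydrogenase a tetramer of Ldha and Ldhb subunits. Ldha-rich enzyme is known from tissues that make lactate and Ldhb-rich enzyme from tissues that burn it. MCT1 (Slc16a1) carries lactate in both directions, and in brain it is known from endothelial cells and glia. MCT4 (Slc16a3) is a low-affinity carrier typical of cells that export lactate.

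Levels were read by probes of 60 bases, most of them near the 3′ end of the transcript. The last 30 bases of the Hk1 and Hk3 probes are shown because a ratio of these isoforms is described below.
Hk1 probe: ccgaattctttagtgagccattgttgtacg
Hk3 probe: tctccctggactaaggattcagcccacacg
The files place the Hk3 probe at chr17:15668934-15668993 (plus strand) of the rn4 build, and give no position for the Hk1 probe. Neither gene had a second probe to set against it, nor did Hk2, whose probe had 83.3% T in its last 30 bases. The other member probes had 20.0% to 46.7% T there. Binding of other RNA was not tested for any probe. The longest stretch that a probe of one member shared with the probe of another was 9 bases (Pfkp and Ldha).

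Several of these genes are textbook targets of the hypoxia-inducible factor HIF, whose core motif is ACGTG or GCGTG. The promoters of a pair of genes with several copies of the core (Ldha and Slc16a1) and of a pair without it (Hk2 and Slc16a3) are shown from 250 bases before to 30 bases after the transcription start, as given by RefSeq on GRCr8. Each core found on either strand is in capitals.
Ldha promoter: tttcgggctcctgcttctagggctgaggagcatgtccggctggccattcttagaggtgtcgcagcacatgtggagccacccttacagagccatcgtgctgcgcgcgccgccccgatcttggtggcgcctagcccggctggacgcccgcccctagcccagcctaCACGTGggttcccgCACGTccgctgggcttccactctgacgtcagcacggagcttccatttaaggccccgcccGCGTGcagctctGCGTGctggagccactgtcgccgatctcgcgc
Slc16a1 promoter: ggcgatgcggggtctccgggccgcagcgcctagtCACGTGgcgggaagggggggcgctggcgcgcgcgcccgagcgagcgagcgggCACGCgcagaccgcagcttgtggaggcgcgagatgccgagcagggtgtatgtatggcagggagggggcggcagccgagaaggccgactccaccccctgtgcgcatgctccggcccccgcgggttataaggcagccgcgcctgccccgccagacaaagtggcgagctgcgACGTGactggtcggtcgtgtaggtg
Hk2 promoter: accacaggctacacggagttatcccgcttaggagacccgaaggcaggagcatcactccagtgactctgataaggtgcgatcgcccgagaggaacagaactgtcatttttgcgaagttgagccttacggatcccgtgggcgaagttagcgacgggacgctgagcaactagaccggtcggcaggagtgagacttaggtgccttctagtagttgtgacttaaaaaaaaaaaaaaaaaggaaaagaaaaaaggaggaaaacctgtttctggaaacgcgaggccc
Slc16a3 promoter: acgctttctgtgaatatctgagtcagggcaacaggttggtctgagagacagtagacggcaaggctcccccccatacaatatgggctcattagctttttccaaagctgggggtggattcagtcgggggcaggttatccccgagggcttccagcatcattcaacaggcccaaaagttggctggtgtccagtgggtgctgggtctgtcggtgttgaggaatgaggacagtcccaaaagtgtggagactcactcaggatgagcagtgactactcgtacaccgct
These windows lie at chr1:106507842-106508121 (plus strand), chr2:194812410-194812689 (plus strand), chr4:116841246-116841525 (minus strand), and chr10:106712078-106712357 (plus strand). Counted on both strands, the core occurred 5 times in the Ldha window and 4 times in the Slc16a1 window, where a palindromic CACGTG counts once on each strand. All 10 genes had an entry in the RefSeq table, Hk1 with 2 starts, and 8 of the 10 held at least 1 core in a window. Counted by entry, 8 of 11 held it. Of 33465 rat promoters of the same length, not matched for base composition, 39.7% held it. The letters mark matches to a motif and do not show that a factor was bound. Of the genes that rose in I/R, as described below, Hk3 and Slc16a1 held the core and Hk2 and Slc16a3 did not, and those that fell, Pfkm and Ldhb, each held it once.

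The level of a gene is given as log2 signal, the log2 of its processed intensity minus the 75th percentile of the same array. Since each probe has its own brightness, levels are compared between arrays and never between genes. A gene is said to have risen or fallen only with a Benjamini-Hochberg adjusted p below 0.05 over all 23747 tested probes (limma, all 9 arrays in 1 model) together with a fold change above 1.5. The study's own thresholds, an unadjusted p below 0.05 and the same fold change, are named as such. All 10 genes were bright enough in at least 1 group to be tested, but Hk3 met this filter through the I/R arrays alone, so that it had to be higher there. The main counts are also given without Hk3. Counts under other settings include it where it was tested. The slide and scan that held the Sham arrays also held the I/R arrays, while DHI had its own, so that in any comparison with DHI the treatment and the slide cannot be told apart.

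After ischemia/reperfusion the inducible and the white cell hexokinase and both lactate carriers were higher, and the muscle subunit of phosphofructokinase and the Ldhb subunit of lactate dehydrogenase were lower. In I/R versus Sham, 6 of the 10 genes passed the adjusted p and the fold change, compared with 31.5% of all tested probes, and 5 of 9 did without Hk3. Hk2, Hk3, Slc16a1, and Slc16a3 rose (16.4% of all probes did), and Pfkm and Ldhb fell (15.1% did). At the study's thresholds 9 of 10 passed (43.1% of all probes), 4 higher (20.8%) and 5 lower (22.3%), with Hk1, Pfkp, and Ldha lower in addition. In the same 9 genes the 3 I/R arrays did not overlap the 3 Sham arrays, which was the case for 62.5% of all probes. Hk3 is among these 9 genes and among the 4 that rose. With only probes well above background on all 9 arrays, where Hk3 was not tested, 8 genes passed the study's thresholds, as did 9199 of 21542 probes. The median log2 fold change of the 10 genes was -0.30, and that of all tested probes was -0.10.

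**Figure D1:**
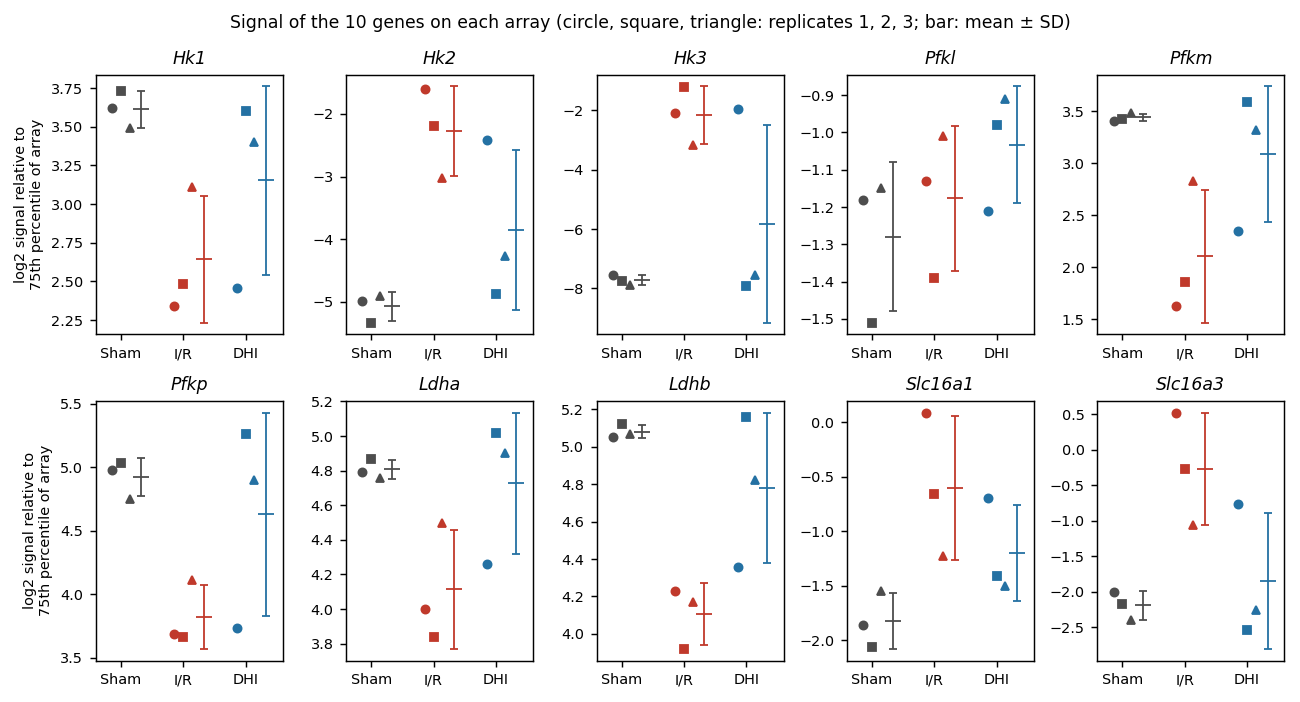
Log2 signal of each of the 10 genes (vertical axis, with its own range in every panel) on the 9 arrays by group. Circles, squares, and triangles are replicates 1, 2, and 3, and the bar is the mean ± SD (n = 3). In 9 of the 10 genes, all but Pfkl, the I/R arrays lie apart from the Sham arrays, and DHI 1 lies within the I/R range in 9 genes, all but Ldhb.

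The hexokinases differed among themselves. Hk1, the main hexokinase of brain, was at a log2 signal of 3.62, 3.73, and 3.49 in Sham and at 2.34, 2.48, and 3.11 in I/R. The I/R arrays were all below the Sham arrays, and the log2 fold change of -0.97 (SE 0.33) missed the adjusted threshold (limma, adjusted p = 0.0528). Hk2 was at -4.98, -5.33, and -4.90 in Sham and at -1.60, -2.20, and -3.02 in I/R. Every I/R array was brighter than every Sham array, and Hk2 rose by 2.80 on the log2 scale (SE 0.62, limma, adjusted p = 0.0396), a 6.94-fold change. This level was read by its only probe, the T-rich one described above. Hk3, the white cell hexokinase, was at -7.55, -7.74, and -7.88 in Sham and at -2.10, -1.23, and -3.18 in I/R. All I/R arrays were brighter than the Sham arrays, with a fitted difference of 5.56 on the log2 scale (SE 1.43, limma, adjusted p = 0.0396) that has no firm base, as the next values show.

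The Sham level of Hk3 lay at the edge of detection. Only 1 of its 2 spots was well above background on Sham 1 and Sham 2, and neither was on Sham 3, whereas both were on the 3 I/R arrays. Hk3 was tested only because of its I/R arrays, and was not tested where all 9 arrays had to be well above background. The size of the difference also depended on the background correction, and with normexp it was 3.08 on the log2 scale (limma, adjusted p = 0.032).

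Among the phosphofructokinases, the muscle and platelet subunits were lower after ischemia, and for the liver subunit no difference was detected. Pfkm was at 3.41, 3.43, and 3.48 in Sham and at 1.63, 1.86, and 2.83 in I/R. Every I/R array was below the Sham arrays, and Pfkm fell by 1.34 on the log2 scale (SE 0.39, limma, adjusted p = 0.0414). Pfkp was at 4.98, 5.03, and 4.75 in Sham and at 3.69, 3.66, and 4.11 in I/R. Its groups did not overlap either, but the change of -1.1 (SE 0.37) missed the adjusted threshold (limma, adjusted p = 0.0519). Pfkl was at -1.18, -1.51, and -1.15 in Sham and at -1.13, -1.39, and -1.01 in I/R, so that the groups overlapped. Its log2 fold change was 0.10, with a 95% interval from -0.30 to 0.51 (limma, adjusted p = 0.651), and its second probe gave -0.02 with an interval from -0.44 to 0.41.

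Both lactate dehydrogenase subunits were lower in I/R. Ldha was at 4.79, 4.87, and 4.76 in Sham and at 4.0, 3.84, and 4.5 in I/R, with no overlap. Its change of -0.69 (SE 0.25) passed the study's thresholds and missed the adjusted one (limma, adjusted p = 0.0626). Besides the Ldha transcript, the files list other transcripts for its probe, so that this level may include theirs. Ldhb was at 5.05, 5.12, and 5.07 in Sham and at 4.23, 3.92, and 4.17 in I/R. The spread within each group was narrow beside the gap between them, and Ldhb fell by 0.97 on the log2 scale (SE 0.21, limma, adjusted p = 0.0396).

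Both lactate carriers moved the other way. Slc16a1 (MCT1) was at -1.86, -2.06, and -1.55 in Sham and at 0.09, -0.66, and -1.23 in I/R. I/R 3 lay nearest to Sham, and Slc16a1 rose 2.33-fold (log2 fold change 1.22, SE 0.36, limma, adjusted p = 0.0419). Slc16a3 (MCT4) was at -2.0, -2.17, and -2.40 in Sham and at 0.52, -0.27, and -1.06 in I/R. It rose 3.79-fold (log2 fold change 1.92, SE 0.53, limma, adjusted p = 0.0404), again with I/R 3 nearest to Sham, as in 8 of the 10 genes. The share of all probes with I/R 3 nearest to Sham was not computed.

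**Figure D2:**
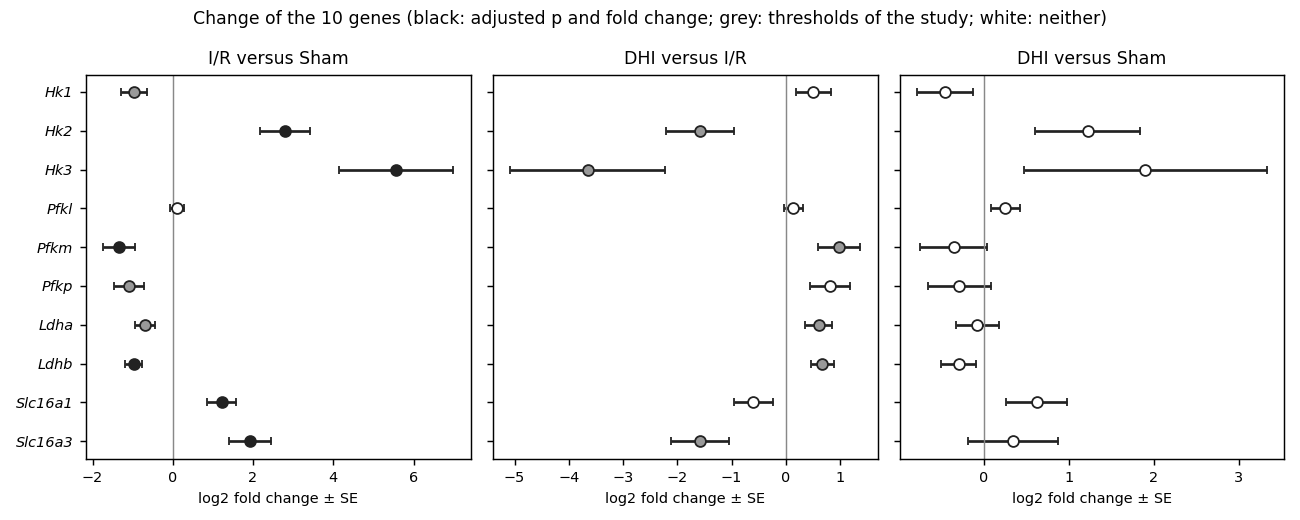
Log2 fold change ± SE (horizontal axis, limma over 9 arrays) of the 10 genes in the 3 comparisons, with black symbols for genes past the adjusted p and the fold change, grey for the study's thresholds, and white for neither. Black symbols appear only in I/R versus Sham, for 6 genes, and the third panel has neither black nor grey symbols.

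The adjusted calls sat close to the threshold, between 0.0396 and 0.0419, and 1 array could remove them. None of the 10 genes passed the adjusted p when any single Sham array, DHI 3, I/R 1, or I/R 2 was left out, and 9 passed without I/R 3 or without DHI 1. The count over all probes moved too: 0 or 1 of the 23747 passed in the former settings, 10135 without I/R 3, and 10266 without DHI 1. At the study's thresholds Hk2, Hk3, Pfkm, Ldhb, Slc16a1, and Slc16a3 passed whichever array was left out. Hk1 did not pass without Sham 2 (-0.91), I/R 1 (-0.82), or I/R 2 (-0.89), Pfkp without I/R 2 (-1.02), and Ldha without Sham 1 (-0.70), Sham 2 (-0.66), Sham 3 (-0.72), I/R 1 (-0.63), or I/R 2 (-0.55). With no scaling between arrays 0 genes passed the adjusted p and 8 passed the study's thresholds, as did 1 and 9853 of all probes.

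To compare isoforms of an enzyme, the log2 ratio of their probes was taken on each array, which cancels any scaling between arrays. Only a change of this ratio between groups has a meaning, because the brightness of the probes differs. In I/R versus Sham the groups did not overlap in 7 of 8 ratios. Hk3 over Hk1 and Hk3 over Hk2 are among these 7, and Hk3 was tested only through its bright I/R arrays. The separation of these ratios is therefore no separate support. All 7 had a two-sided exact permutation p of 0.1, the smallest that 3 arrays against 3 allow, and an adjusted p of 0.24 over the 24 ratio tests (exact permutation), so that no ratio could pass a threshold of 0.05. Among single probes 62.5% did not overlap, and the share among ratios of other genes was not computed. Ratios within the hexokinases or the phosphofructokinases share genes and are not separate results.

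The hexokinase ratios shifted towards Hk2 and Hk3. Hk2 over Hk1 was at -8.60, -9.06, and -8.39 in Sham and at -3.94, -4.68, and -6.13 in I/R, a shift of 3.76 (SE 0.67) or 13.6-fold towards Hk2. Hk3 over Hk1 shifted by 6.52 (SE 0.77), with Sham arrays between -11.47 and -11.17 and I/R arrays between -6.29 and -3.71, and by 4.04 with normexp background correction. Hk3 over Hk2 shifted by 2.76 (SE 0.48), and by 0.94 with normexp. Both rest on the Sham level of Hk3 at the edge of detection.

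In phosphofructokinase the ratios of the liver subunit to both others were higher in I/R, while no difference was detected in Pfkl itself. Pfkl over Pfkm was at -4.60, -4.94, and -4.63 in Sham and at -2.77, -3.25, and -3.84 in I/R (shift 1.44, SE 0.33), and Pfkp over Pfkl went from 6.17, 6.54, and 5.90 to 4.83, 5.04, and 5.12 (shift -1.20, SE 0.20). The ratio of Pfkp to Pfkm was the one that overlapped. It was at 1.57, 1.60, and 1.27 in Sham and at 2.06, 1.8, and 1.28 in I/R, a difference of 0.23 (SE 0.25, exact permutation p = 0.4) within the spread of the arrays.

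The balance of lactate dehydrogenase subunits moved little compared with that of the hexokinases. Ldha over Ldhb was at -0.25, -0.25, and -0.31 in Sham and at -0.23, -0.08, and 0.33 in I/R, a shift of 0.28 (SE 0.17), with I/R 3 furthest from Sham. The carriers shifted towards MCT4: Slc16a3 over Slc16a1 was at -0.14, -0.11, and -0.85 in Sham and at 0.43, 0.39, and 0.17 in I/R (shift 0.70, SE 0.26).

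**Figure D3:**
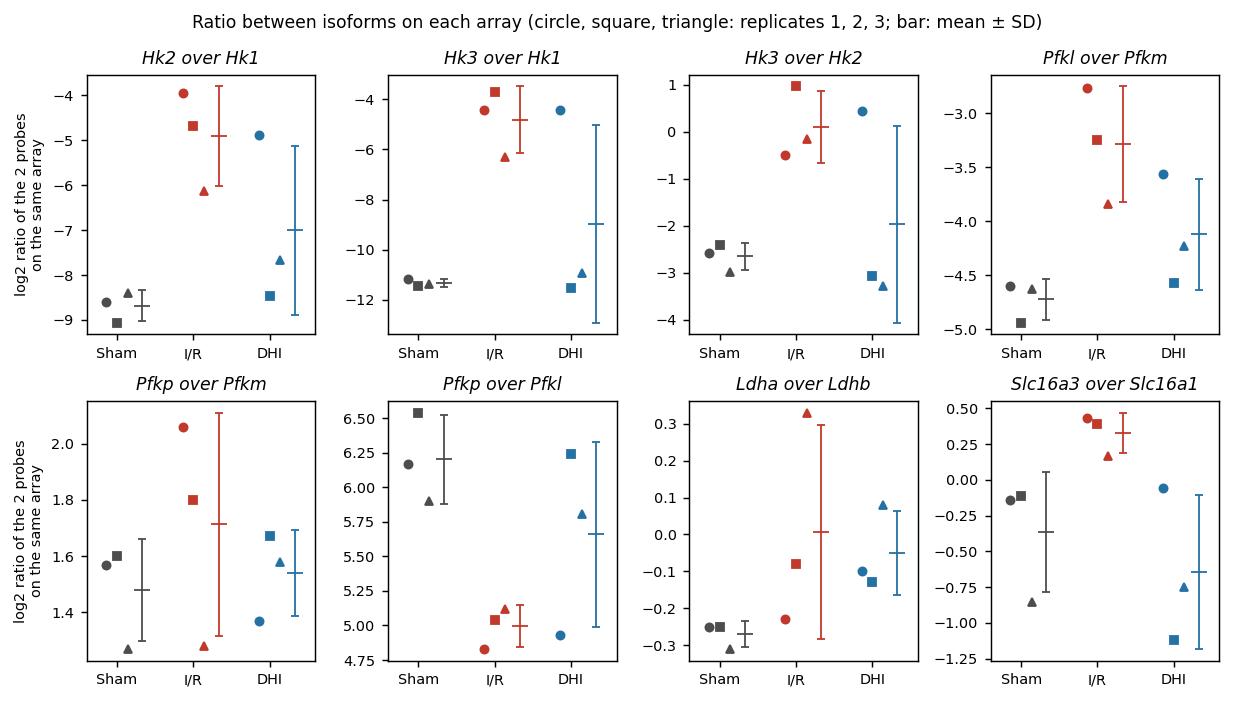
Log2 ratio of 2 isoforms on the same array (vertical axis, own range per panel) for 8 pairs by group, with symbols for replicates 1, 2, and 3 and a bar for the mean ± SD (n = 3). Sham and I/R arrays lie apart in 7 pairs and overlap in Pfkp over Pfkm. The 7 include both pairs with Hk3, which was tested only through its I/R arrays. DHI 1 departs from DHI 2 and DHI 3 in all 3 hexokinase pairs.

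After Danhong injection the group means of 9 genes lay between those of Sham and I/R, and the DHI arrays differed among themselves. Set against I/R, 0 of the 10 genes passed the adjusted p (limma, smallest adjusted p = 0.196), as did 0.00421% of all probes. At the study's thresholds 6 passed, against 21.9% of all probes. The DHI group had 3 genes higher, Pfkm (log2 fold change 0.98), Ldha (0.61), and Ldhb (0.67), against 11.5% of all probes, and 3 lower, Hk2 (-1.58), Hk3 (-3.65), and Slc16a3 (-1.58), against 10.5%. Without Hk3, which was tested only through its bright I/R arrays, 5 of 9 genes passed. The methods' t-test gave 0 genes with an unadjusted p below 0.05, where limma gave 6. Only Ldhb had DHI arrays that did not overlap the I/R arrays, which 9.53% of all probes did. The 10 genes had a median log2 fold change of 0.32, and all tested probes one of 0.10. Both this comparison and I/R versus Sham use the same I/R arrays.

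DHI 1 stood apart from the other 2 DHI arrays. It was the DHI array nearest to the I/R mean in all 10 genes and lay within the I/R range in 9, the exception being Ldhb. The share of all probes with this order was not computed. The split was not confined to these genes: of 23747 probes, 1 passed the adjusted p in DHI versus I/R with DHI 1 and 9527 without it. Hk2 was at -2.42 on DHI 1 and at -4.87 and -4.27 on DHI 2 and DHI 3. Hk3 was at -1.97, -7.93, and -7.55, and on DHI 2 neither of its spots was well above background and on DHI 3 only 1. Slc16a3 was at -0.76, -2.54, and -2.25. On DHI 2 and DHI 3 these 3 genes were below all I/R arrays, and on DHI 1 they were not.

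The genes that were lower after ischemia showed the same split. Hk1 was at 2.46 on DHI 1 and at 3.60 and 3.40 on the others, Pfkm at 2.35, 3.59, and 3.32, and Pfkp at 3.73, 5.26, and 4.90. Ldha was at 4.26, 5.02, and 4.90. Ldhb was at 4.36, 5.16, and 4.82, so that even DHI 1 was above the brightest I/R array. Its log2 fold change was 0.67 with a 95% interval from 0.18 to 1.16 (limma, unadjusted p = 0.0137). Slc16a1 was at -0.69, -1.41, and -1.50, and its change from I/R of -0.60 had an interval from -1.43 to 0.23. Pfkl was at -1.21, -0.98, and -0.91, with a difference of 0.14 and an interval from -0.26 to 0.55.

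Single arrays decided how many genes passed in DHI versus I/R. Without DHI 1, 8 of 10 passed the adjusted p, where 9527 of the 23747 probes passed: Hk2 (-2.30), Hk3 (-5.57), and Slc16a3 (-2.12) were lower and Hk1 (0.85), Pfkm (1.35), Pfkp (1.26), Ldha (0.84), and Ldhb (0.88) were higher. At the study's thresholds 9 passed without DHI 1, 0 passed without DHI 2, and 1 passed without I/R 1 (Ldhb), I/R 2 (Slc16a3), or DHI 3 (Ldhb). The count over all 23747 probes moved too: it was 10737 with DHI 1 left out, 939 for DHI 2, 1127 for DHI 3, 1381 for I/R 1, and 1659 for I/R 2. Without any single Sham array 4 passed (Hk2, Hk3, Ldhb, and Slc16a3). Over all probes 3922 passed without Sham 1, 3804 without Sham 2, and 3803 without Sham 3. Hk3 changed by -1.59 with normexp background correction (limma, adjusted p = 0.192), and no longer passed the study's thresholds.

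Of the 8 isoform ratios 1, that of the carriers, did not overlap between DHI and I/R. Among single probes 9.53% did not overlap between these groups, and the share among ratios of other genes was not computed. Slc16a3 over Slc16a1 was at -0.06, -1.12, and -0.75 in DHI, below all I/R arrays, a shift of -0.98 (SE 0.32, two-sided exact permutation p = 0.1, adjusted p = 0.24). It was the only ratio of 8 in which DHI 1 lay outside the I/R arrays together with the other DHI arrays. Hk2 over Hk1 was at -4.88 on DHI 1 and at -8.47 and -7.67 on DHI 2 and DHI 3, and Ldha over Ldhb was at -0.10, -0.13, and 0.08, within the I/R range (difference -0.06, SE 0.18, exact permutation p = 0.8).

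DHI versus Sham asks what remained after treatment. None of the 10 genes passed either set of thresholds (limma, 0 with an unadjusted p below 0.05, and 0 with the methods' t-test), compared with 0% of all probes at the adjusted p and 3.58% at the study's thresholds (2.52% higher and 1.06% lower). Hk2 (log2 fold change 1.22, 95% interval -0.20 to 2.64) and Slc16a1 (0.62, interval -0.21 to 1.45) were brighter on all 3 DHI arrays than on any Sham array, and 18.6% of all probes had groups that did not overlap. Hk3 had the widest interval, from -1.38 to 5.19, and for the other 7 genes the intervals also included 0. Without DHI 2, Hk2 passed the study's thresholds (1.73). These intervals leave room for sizeable differences, so that a return to the Sham level was not shown. Among the ratios, Pfkl over Pfkm (shift 0.60, SE 0.32) and Ldha over Ldhb (0.22, SE 0.07) were higher in DHI than in Sham without overlap (two-sided exact permutation p = 0.1, adjusted p = 0.24 for both).

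Most of the remaining glycolytic enzymes were lower after ischemia, as Pfkm and Ldhb were. Of 14 such genes 13 were tested, and 8 fell and 0 rose in I/R versus Sham, with a median log2 fold change of -0.95, where 15.1% of all probes fell and their median was -0.10. Eno2, the enolase of neurons, fell by 1.84 (SE 0.55). Tpi1, triosephosphate isomerase, fell by 1.34 (SE 0.37), and Pgam1, a phosphoglycerate mutase, by 1.1 (SE 0.31). The adjusted p of these 3 genes lay between 0.0405 and 0.0419 (limma). After Danhong injection the median change of the list from I/R was 0.79 and 0 passed the adjusted p, whereas 10 were higher at the study's thresholds, as were 11.5% of all probes. Probes of 1 gene did not always give 1 answer: for Pkm, pyruvate kinase, the brightest probe gave -0.74 (limma, adjusted p = 0.0539) and dimmer ones -0.86 (adjusted p = 0.0438) and -2.51 (adjusted p = 0.0418).

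Genes for the entry of pyruvate into mitochondria were also mostly lower. Of 12 genes 11 were tested, 7 fell (15.1% of all probes did) and 0 rose, and the median was -0.63. Pdp1, the phosphatase that activates pyruvate dehydrogenase, fell by 2.13 (SE 0.52). Pdha1 and Dlat, subunits of that complex, fell by 0.91 (SE 0.23) and 0.81 (SE 0.22), and Mpc2, a subunit of the pyruvate carrier, by 0.82 (SE 0.24). Pdk2, a kinase that inhibits pyruvate dehydrogenase, fell as well, by 0.60 (SE 0.20, limma, adjusted p = 0.0488). Against I/R, 2 of the 11 were higher in DHI at the study's thresholds (11.5% of all probes were) and 0 passed the adjusted p.

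Genes before and beside the phosphofructokinase step were mixed. Over all tested probes 16.4% rose and 15.1% fell in I/R versus Sham. Of 4 tested hexose transporters 2 rose, the fructose transporter Slc2a5 by 3.62 on the log2 scale (SE 0.74) and the insulin-regulated Slc2a4 by 1.00 (SE 0.32). The neuronal glucose transporter Slc2a3 had a log2 fold change of -2.0 (SE 0.76, limma, adjusted p = 0.0719), and Slc2a1 of the blood-brain barrier one of 0.03 (SE 0.14). Of 7 regulators of phosphofructokinase 2 rose and 1 fell. Pfkfb1, which makes the activator fructose 2,6-bisphosphate, rose by 1.5 (SE 0.33), Fbp1, which catalyzes the opposite step to phosphofructokinase, rose by 1.41 (SE 0.44), and Tigar, which lowers that activator, fell by 1.43 (SE 0.32). A second, dimmer probe of Pfkfb1 was too dim to be tested, and both probes of Tigar gave -1.43. Of the other hexokinases 2 were tested and 0 passed (limma), with 0.88 (SE 0.44) for Adpgk, a kinase that uses ADP. Of 6 tested genes around lactate 0 passed the adjusted p. At the study's thresholds 1 passed (43.1% of all probes did), Emb, a partner protein of MCT1, with 0.66. The neuronal carrier Slc16a7 had 0.11 and Bsg, the main partner of the carriers, -0.36.

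**Figure D4:**
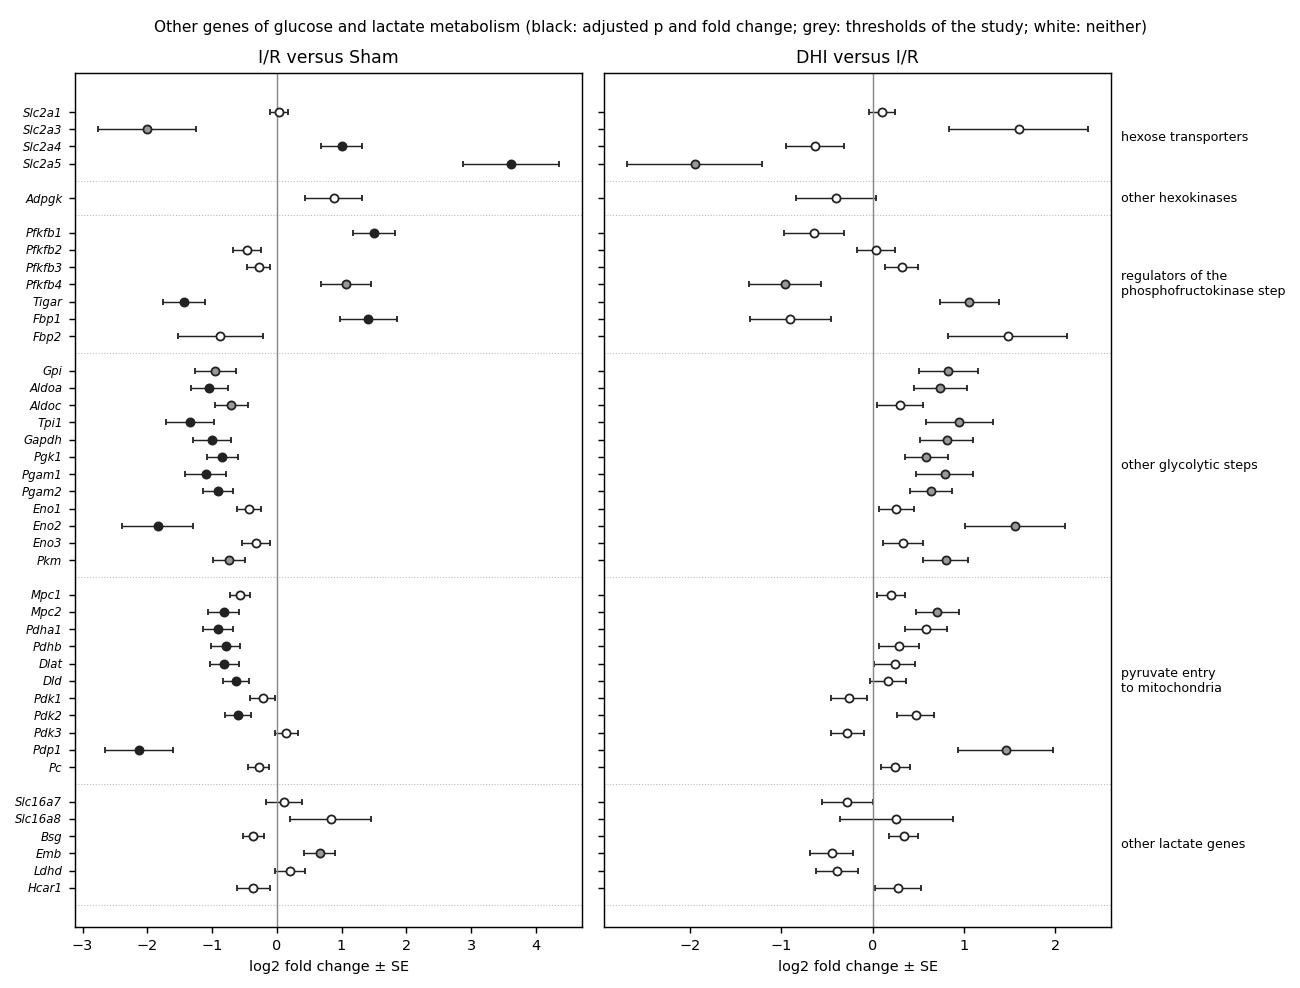
Log2 fold change ± SE (horizontal axes, limma) of other tested genes of glucose and lactate metabolism by list, in I/R versus Sham on the left and DHI versus I/R on the right, with black symbols for genes past the adjusted p and the fold change, grey for the study's thresholds, and white for neither. All 12 glycolytic genes drawn lie to the left of 0 in I/R versus Sham and to the right of 0 in DHI versus I/R.

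Markers of brain cell types moved with these genes, and in bulk tissue fewer cells of a type and less RNA per cell cannot be told apart. The summed signal of 7 neuronal markers, with the 75th percentile of the array as 1, was 62.6 to 70.5 in Sham, 5.88 to 30.7 in I/R, and 20.2 to 65.5 in DHI. In I/R versus Sham 6 of the 7 fell (15.1% of all probes did). That of 7 markers of microglia and macrophages was 9.14 to 10.9, 60.1 to 171, and 13.2 to 94.6, and 6 of 7 rose. Cx3cr1, the remaining marker, went the other way. It was lower on every I/R array than on any Sham array, but passed neither set of thresholds. Astrocyte markers summed to 35.9 to 40.1, 60.6 to 80.4, and 34.6 to 66.0, and 3 of 6 rose. In these 3 lists DHI 1 was the DHI array nearest to I/R, as it was for the 10 genes. The part of such shifts in the isoform changes was not tested.

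Oligodendrocyte markers summed to 142 to 166, 110 to 161, and 153 to 198, and 0 of 6 passed the adjusted p. Of 5 endothelial markers 1 rose (16.4% of all probes did), with sums of 2.64 to 2.85, 3.10 to 5.01, and 2.76 to 3.32. Of 4 neutrophil markers 3 were tested, Elane being too dim, and 2 rose. Mpo, the remaining one, was lower on every I/R array than on any Sham array, but passed neither set of thresholds. The sums of this list were low, with 0.0272 to 0.0577 in Sham, 0.0795 to 0.19 in I/R, and 0.0704 to 0.0961 in DHI. Red cell genes summed to 3.75 to 29.7 in Sham, 2.27 to 3.34 in I/R, and 7.33 to 38.9 in DHI. At the study's thresholds 3 of 3 were lower in I/R than in Sham (22.3% of all probes were). In DHI 3 of 3 were higher than in I/R (11.5% of all probes were), none past the adjusted p (limma). DHI 1 had the lowest sum of the DHI arrays. Their part in the results above was not tested. The choroid plexus markers, of which 3 of 4 were tested and 1 rose, were high on I/R 3 (93.5), DHI 1 (137), and DHI 3 (74.2), and summed to 7.50 on DHI 2 and to 0.461 to 2.19 on the other arrays.

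**Figure D5:**
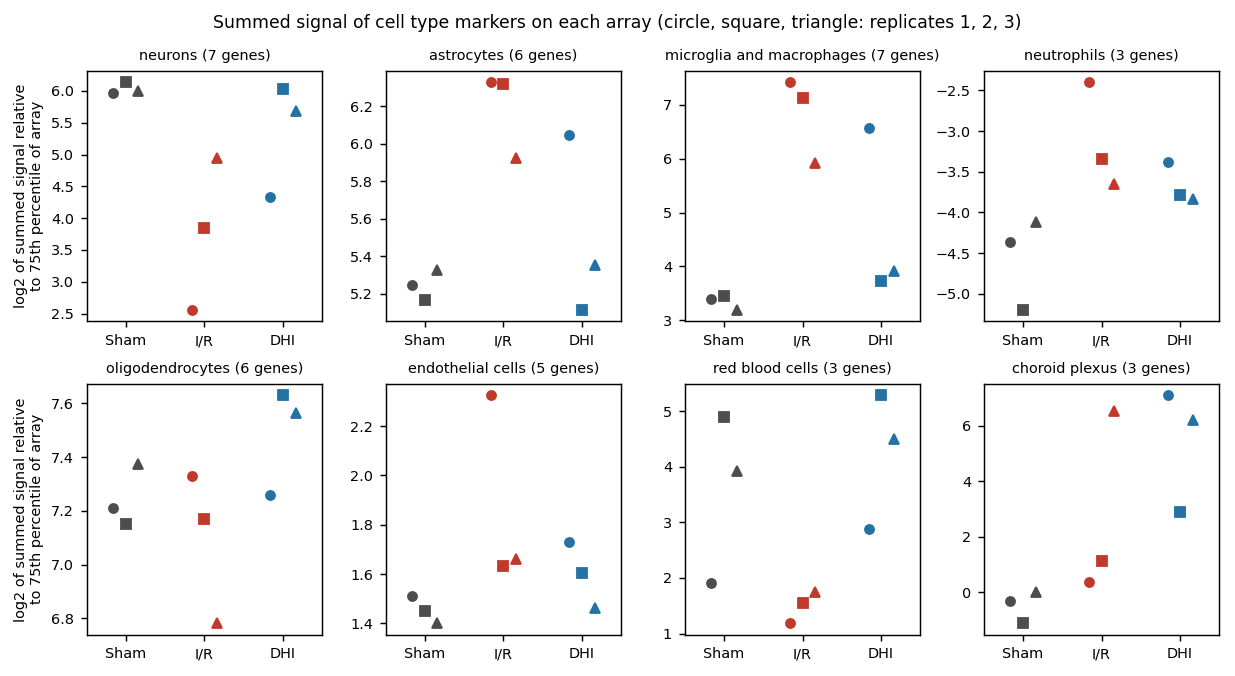
Log2 of the summed signal of 8 lists of cell type markers (vertical axis, own range per panel) on the 9 arrays by group, with symbols for replicates 1, 2, and 3. In sums, neuronal markers are lower and markers of microglia and macrophages and of astrocytes higher on all 3 I/R arrays than on Sham arrays. In these lists DHI 1 lies apart from DHI 2 and DHI 3. The choroid plexus sum is highest on I/R 3, DHI 1, and DHI 3, where it is largely Ttr.

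The genes with the pattern most like that of a member were sought by Pearson's r over the 9 arrays among 15586 genes. For Hk3 they were Ccl12 (0.999), Rab20 (0.998), and Tagln2 (0.998), and for Hk2 Card9, Tln1, and Hist1h2bc (0.998 each). For Slc16a3 they were Rnf114 (0.997), Limd2 (0.996), and Ppm1j (0.995). For Pfkm, which ran the other way, they were Eef1a2, Spryd3, and Gria3 (0.998 each). Such values were common, since 1461 to 2010 genes had an r above 0.95 with each of these 4, and the arrays share their groups and their split within DHI.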

How the data were processed

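RNA from 9 rat brains (3 Sham, 3 I/R, and 3 DHI) was labeled with Cy3 and hybridized to one-color Agilent arrays. The labels gave the group and replicate number of each rat. The authors deposited the spot intensity files of Agilent Feature Extraction (version 10.7.1.1 in the submitters' processing notes), corrected for background within the array, and a series table of log2 values that the authors had normalized between arrays by a method not given in the sources used here. Precision is limited by the number of arrays. Per array, 75.2% to 78.9% of probes exceeded background clearly and 0 were saturated.

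The 10 genes and all gene lists were chosen with earlier results of these data known. Each probe's value was its mean log2 processed intensity over spots, from which the array's 75th percentile was subtracted, without control spots and the 392 to 725 outlier spots per array. Probes entered the test if in 1 group every array had at least 0.5 of their spots well above background, which left 23747 of 30367 probes. A model was fitted to all 9 arrays in R 4.3.3 with limma 3.58.1 (lmFit and eBayes, 6 residual degrees of freedom), and p-values were adjusted by Benjamini-Hochberg over all tested probes. Ratios were compared by two-sided exact permutation tests in SciPy 1.17.1. The study's methods name a t-test with an unadjusted p below 0.05 and a fold change above 1.5, and this t-test (the methods' t-test) was also run. The steps were tested on simulated data. A gene with several probes was represented by the brightest. Named besides the 10 genes were, per pathway list, up to 4 genes with the largest change past the adjusted p in I/R versus Sham, and the 3 genes most like each of the 4 most changed members. Genes named outside this rule (Slc2a3, Slc2a1, Adpgk, Emb, Slc16a7, Bsg, Pdk2, Pkm, Cx3cr1, Mpo, Ttr, Folr1, and Kcnj13) were chosen after their values were seen. Some items that the rule names are not reported here. Tigar is listed as LOC502894 in the files and Mpc2 as Brp44. The symbols of the 10 genes matched their accessions in the RefSeq table. The columns of per-sample values not used numbered 0. Alternatives tried were quantile scaling, no scaling, normexp (offset 50), the series table, other filters on dim probes, other model terms (array weights, replicate block, fewer groups), the mean over a gene's probes, and omission of each array.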

Additional observations from a re-analysis of the deposited data

How the results depend on the processing

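The number of the 10 genes past the adjusted p in I/R versus Sham, 6, became 0 with no scaling between arrays and lay between 0 and 9 when 1 array was left out. At the study's thresholds it was 9 and lay between 6 and 9. In DHI versus I/R the count past the adjusted p, 0, became 9 with array weights, where 11817 of all 23747 probes passed, and lay between 0 and 8 with 1 array left out. The count at the study's thresholds, 6, became 2 with only the 2 groups compared, 0 with the methods' t-test, and 9 with array weights, and lay between 0 and 9 with 1 array left out. Over all probes this count, 5211, became 2149 with only the 2 groups, 469 with the methods' t-test, and 11904 with array weights. In DHI versus Sham the count at the study's thresholds, 0, became 1 with no scaling, normexp, array weights, or the replicate block, and lay between 0 and 1 with 1 array left out. Over all probes it was 849, and became 1688 with no scaling, 1341 with normexp, 3484 with array weights, and 1280 with the replicate block. The causes were not tested.

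Values near 0 changed sign. For I/R versus Sham, Pfkl became -0.04 with array weights and lay between -0.01 (without Sham 2) and 0.21 with 1 array left out. With no scaling, which moved the median of all probes in DHI versus I/R from 0.10 to -0.36, Pfkl became -0.32 in that comparison and -0.02 in DHI versus Sham. In DHI versus Sham, Pfkp became 0.01, Ldha 0.09, and Slc16a3 -0.02 with array weights, and with 1 array left out Hk3 lay between -0.02 and 2.96, Pfkm between -0.61 and 0.01, Pfkp between -0.61 and 0.16, Ldha between -0.23 and 0.15, Slc16a3 between -0.20 and 0.69, and the ratio of Hk3 to Hk2 between -0.52 and 1.35, the change of sign occurring without DHI 1. Relative to I/R, Pfkp over Pfkm lay between -0.39 and 0.0 (without I/R 1) and Ldha over Ldhb between -0.18 and 0.10 (without I/R 3), and relative to Sham, Pfkp over Pfkm became -0.04 without Sham 3 and 0.0 without DHI 2, with a highest value of 0.15. Of the 597 alternative values for single genes, 500 kept their direction and their side of the threshold. Of the 264 values for ratios, which could not pass a threshold of 0.05, 259 kept their direction.

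Deviations from the group mean were correlated between arrays of different groups. The correlations ran from -0.341 to 0.476 for the same replicate number and from -0.531 to 0.462 for different numbers. With 3 arrays per group such values cannot show whether the numbers pair the rats. With the replicate block, 7 genes passed the adjusted p for I/R versus Sham and 0 for DHI versus I/R. Of all probes 8426 and 1 did. The paired sign-flip test of a ratio cannot go below p = 0.25 with 3 pairs (exact permutation).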
